A study of Homo sapiens with 45 samples.

Results

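The MYC, MAX and MXD network was described here through 10 genes, which were MYC, MYCN, MAX, MXI1, MXD1, MXD3, MXD4, MNT, MGA and MLX. They were chosen by gene symbol and make up 10 of the 38557 genes in each of the 2 tables of TPM, the share of a library's transcripts after correction for gene length. All 10 had a row in both tables. A gene was tested where at least 3 libraries of a table held 1 TPM or more, which kept 9 members in Jurkat cells and all 10 in the other lines. MYCN was the member left untested in Jurkat cells.

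Poly(A) RNA was sequenced from 4 human T-cell acute lymphoblastic leukaemia (T-ALL) cell lines in 45 libraries, in 15 groups of 3. Jurkat cells that express Cas9 carried guides against ARID1A (gARID1A), against ARID1A and ARID1B (gARID1A_1B), against SMARCA4 (gSMARCA4), against SMARCA4 and SMARCA2 (gSMARCA4_A2), or against the AAVS1 site as the control (gAAVS1), and RNA was taken 10 days after transduction from puromycin-selected cells. For the inhibitor, Jurkat cells were kept for 6 h or for 8 d in 1 uM BRM014, which inhibits the remodeller ATPases SMARCA4 and SMARCA2, or in 0.01% DMSO. The lines CCRF-CEM, KOPT-K1 and TALL-1 were given the same agents at the same doses for 6 h only. ARID1A, ARID1B, SMARCA4 and SMARCA2 are parts of the cBAF chromatin remodeller, which slides nucleosomes, and the study asked what its loss or inhibition does to transcription in these leukaemia lines.

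MYC and its relative MYCN are transcription factors that bind DNA only as pairs with MAX. MYC-MAX pairs raise genes of ribosome assembly, nucleotide synthesis and cell growth. MXD1, MXI1, MXD3, MXD4, MNT and MGA also need MAX, occupy the same E-box motif, and recruit repressors, so they are called MYC antagonists. MLX resembles MAX but pairs with MLXIP and MLXIPL, the glucose-sensing MONDO factors, and with some MXD proteins. In T-ALL, MYC is a direct target of NOTCH1, and MXD genes are often higher in cells that leave the cycle.

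The E-box that MYC-MAX and MXD-MAX pairs prefer is CACGTG, which reads the same on both strands. In the RefSeq promoters of GRCh38.p14, windows of 300 bases with 250 before and 50 after a gene's start, 14 promoters belonged to 9 members, and 3 of these held CACGTG. The motif occurred in 2548 of all 35116 promoters, or 7.26%. The 3 promoters, of MXD4, MNT and MLX, are printed here because they are the member promoters in which these letters were found, and MXD4 is the member that rose most. Capitals mark the motif, which began 238 bases before the start of MXD4, 193 before that of MNT and 50 before that of MLX. The MXD4 window is shown as the 250 bases before the start, at chr4:2262110-2262359 on the minus strand. MNT is shown with 30 bases on each side of the motif at chr17:2401218-2401283 on the minus strand, and MLX likewise at chr17:42567020-42567085 on the plus strand.
MXD4: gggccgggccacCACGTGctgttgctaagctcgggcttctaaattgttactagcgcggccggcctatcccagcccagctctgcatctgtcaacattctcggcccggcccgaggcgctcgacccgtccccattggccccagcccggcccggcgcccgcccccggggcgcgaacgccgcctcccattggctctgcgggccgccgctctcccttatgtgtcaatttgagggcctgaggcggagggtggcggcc
MNT: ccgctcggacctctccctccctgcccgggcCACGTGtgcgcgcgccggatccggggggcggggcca
MLX: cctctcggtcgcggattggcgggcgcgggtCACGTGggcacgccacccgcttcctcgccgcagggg
These promoters were rich in G and C, at 72.3% for MXD4, 76.0% for MNT and 71.0% for MLX, against a median of 58.7% over all promoters. MXD4, MNT and MLX did not move alike in the values that follow. The match is a description of letters and no binding was measured.

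Reads assigned to genes numbered 29.7 to 47.9 M in Jurkat libraries and 19.7 to 27.0 M in those of KOPT-K1, CCRF-CEM and TALL-1 cells. Mitochondrially encoded genes took 20.0 to 24.9% of TPM in Jurkat libraries and 4.99 to 8.04% in the others. Of 10 T cell markers, 10 averaged at least 1 TPM in Jurkat, CCRF-CEM and KOPT-K1 cells and 9 did in TALL-1 cells, where CD28 was below 1 TPM. SMARCA4 averaged 44.2 ± 1.63 TPM in gSMARCA4 cells and 49.9 ± 2.35 TPM in gSMARCA4_A2 cells, against 97.5 ± 2.41 TPM in gAAVS1 cells. ARID1B averaged 11.9 ± 0.993 TPM in gARID1A_1B cells, against 22.7 ± 0.525 TPM in gAAVS1 cells. The mRNAs of ARID1A and SMARCA2 were not lower by a like amount in cells with guides against them (ARID1A 83.1 TPM with gARID1A and 101 TPM with gARID1A_1B, against 94.4 TPM with gAAVS1; SMARCA2 22.4 TPM with gSMARCA4_A2, against 21.8 TPM with gAAVS1), and mRNA does not measure editing. Below, errors beside TPM are SD with n = 3, log2 fold changes of TPM + 1 stand with their standard errors, and adjusted p is limma's after Benjamini-Hochberg adjustment over all genes of a table, with calls under 0.05. Kit and extraction differed between the Jurkat libraries and the others, so levels were compared only within each set.

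MYC mRNA fell in Jurkat cells under BRM014 and stood at almost the same level at 6 h and at 8 d. At 6 h MYC had 84.6, 83.6 and 93.0 TPM in BRM014 libraries, against 164, 161 and 180.4 TPM in DMSO libraries. At 8 d the BRM014 libraries held 94.1, 89.3 and 80.0 TPM, against 166, 167 and 171 TPM in DMSO. No BRM014 library came near any DMSO library. The BRM014 mean was 48.3% lower at 6 h and 47.7% lower at 8 d, which were log2 fold changes of -0.94 ± 0.071, adjusted p = 5.27e-10 and -0.93 ± 0.071, adjusted p = 2.6e-10. The effect at 8 d minus the effect at 6 h was 0.014 ± 0.10 (95% interval -0.20 to 0.22, adjusted p = 0.929). The DMSO groups of 8 d and 6 h differed in MYC by -0.0035 (adjusted p = 0.98). In bulk RNA a smaller share of cells with MYC mRNA and less MYC mRNA per cell cannot be told apart. Of the 17936 genes tested, 344 had a lower fold change than MYC at 6 h and 454 at 8 d.

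Guides against different cBAF subunits moved MYC in opposite directions. MYC had 215, 219.8 and 204 TPM in gARID1A libraries and 184, 171 and 158 TPM in gARID1A_1B libraries, against 155, 140.1 and 147 TPM in gAAVS1 libraries. gSMARCA4 libraries held 139.6, 121 and 114 TPM and gSMARCA4_A2 libraries 78.8, 75.9 and 73.4 TPM. The groups therefore ran, from high to low, gARID1A, gARID1A_1B, gAAVS1, gSMARCA4 and gSMARCA4_A2, and no library of a group overlapped the next group. Against gAAVS1, MYC was 0.53 ± 0.071, adjusted p = 1.03e-05 with gARID1A and 0.21 ± 0.071, adjusted p = 0.0216 with gARID1A_1B. It was -0.24 ± 0.071, adjusted p = 0.00967 with gSMARCA4 and -0.94 ± 0.071, adjusted p = 2.81e-10 with gSMARCA4_A2, a mean 15.2% and 48.3% lower than in gAAVS1 cells.

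The differences of gARID1A_1B and gSMARCA4 from gAAVS1 were small. Their calls were lost when some single libraries were left out, while the direction stayed. For MYC in gARID1A_1B cells, the log2 fold change was 0.18, adjusted p = 0.0941 without gAAVS1 replicate 2, 0.21, adjusted p = 0.0506 without gAAVS1 replicate 3, 0.16, adjusted p = 0.121 without gARID1A_1B replicate 1 and 0.21, adjusted p = 0.0512 without gARID1A_1B replicate 2. For MYC in gSMARCA4 cells it was -0.20, adjusted p = 0.0507 without gAAVS1 replicate 1 and -0.18, adjusted p = 0.074 without gSMARCA4 replicate 3. The direct comparisons of guide groups were larger. MYC was lower in gARID1A_1B than in gARID1A cells (log2 fold change -0.32 ± 0.071, adjusted p = 0.00254), lower in gSMARCA4_A2 than in gSMARCA4 cells (-0.70 ± 0.071, adjusted p = 2.16e-07), and lower in gSMARCA4 than in gARID1A cells (-0.77 ± 0.071, adjusted p = 3.12e-08). Between gSMARCA4_A2 and gARID1A_1B cells the difference was -1.15 ± 0.071, adjusted p = 3.59e-11, and only 42 of 17936 genes had a lower fold change there than MYC.

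In the other lines MYC fell steeply in CCRF-CEM, fell in TALL-1, and was not called in KOPT-K1 cells. CCRF-CEM libraries held 23.9, 29.0 and 25.7 TPM under BRM014, against 188, 224 and 166 TPM in DMSO. TALL-1 libraries held 36.9, 43.4 and 30.7 TPM under BRM014, against 112, 129 and 91.3 TPM in DMSO. KOPT-K1 libraries held 208, 183 and 173 TPM under BRM014, against 210.1, 187 and 163 TPM in DMSO, and these overlapped fully. The log2 fold change was -2.83 ± 0.15, adjusted p = 1.7e-09 in CCRF-CEM cells, a mean 86.4% lower, and 10 of 16241 genes lay below it. It was -1.55 ± 0.15, adjusted p = 6.9e-07 in TALL-1 cells, a mean 66.6% lower. In KOPT-K1 cells it was 0.015 ± 0.15 (95% interval -0.31 to 0.34, adjusted p = 0.973).

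The inhibitor's effect on MYC differed between each pair of these lines. The CCRF-CEM effect minus the KOPT-K1 effect was -2.84 ± 0.21, adjusted p = 3.92e-07. The TALL-1 effect minus the CCRF-CEM effect was 1.27 ± 0.21, adjusted p = 0.000533, and the TALL-1 effect minus the KOPT-K1 effect was -1.57 ± 0.21, adjusted p = 9.08e-05. The order of these effects was not the order of the DMSO levels. In DMSO, CCRF-CEM and KOPT-K1 cells had means of 193 ± 29.4 and 186 ± 23.7 TPM and differed by 0.047 ± 0.15, adjusted p = 0.809, while TALL-1 cells had 111 ± 19.0 TPM and were lower than CCRF-CEM cells (-0.80 ± 0.15, adjusted p = 0.00022) and lower than KOPT-K1 cells (-0.75 ± 0.15, adjusted p = 0.000346). Libraries with the same replicate number gave log2 ratios of MYC TPM of -2.98, -2.95 and -2.70 in CCRF-CEM, -1.60, -1.57 and -1.57 in TALL-1, and -0.016, -0.032 and 0.093 in KOPT-K1 cells.

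**Figure D1:**
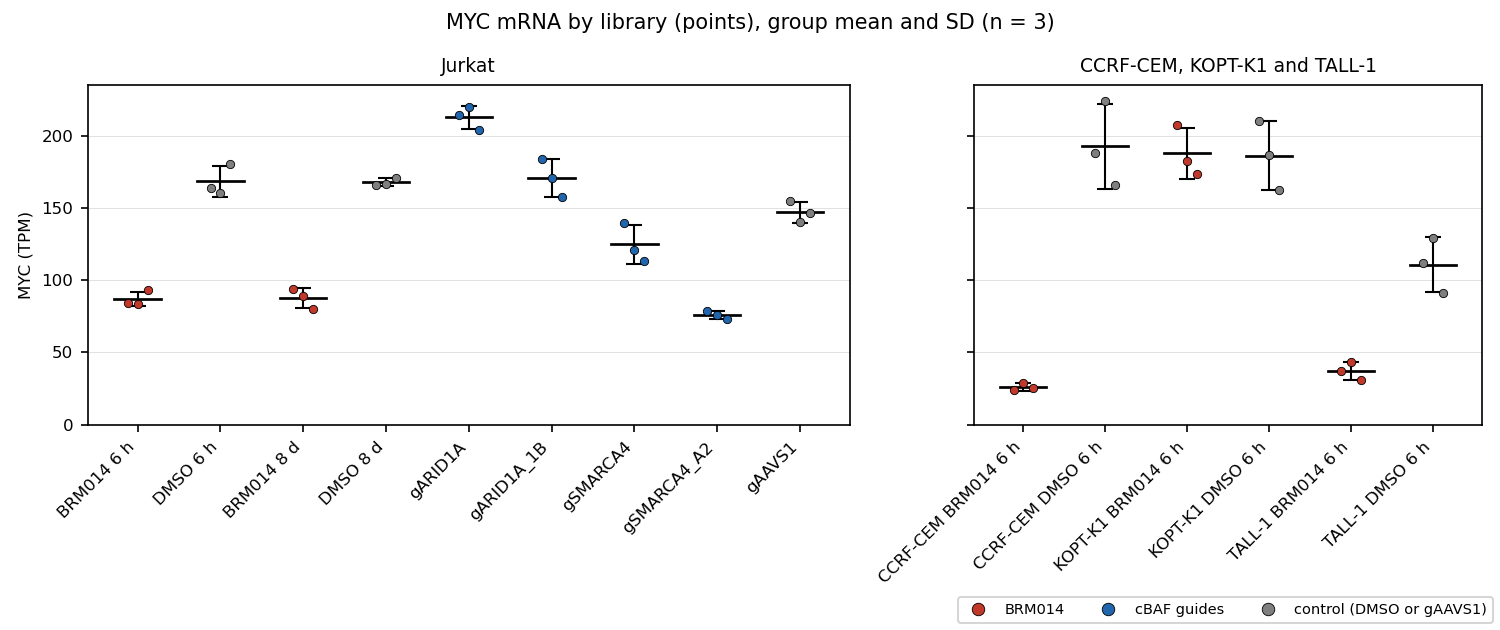
MYC mRNA in TPM (vertical axis) in each library of the 9 Jurkat groups (left) and the 6 groups of the other lines (right), with points for libraries and bars for the group mean and SD (n = 3). BRM014 libraries lie below DMSO in Jurkat, CCRF-CEM and TALL-1 cells and among them in KOPT-K1 cells, and gARID1A libraries lie above all gAAVS1 libraries while gSMARCA4_A2 libraries lie below them.

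MYCN, the relative that takes MYC's place in some tumours, was tested in KOPT-K1, CCRF-CEM and TALL-1 cells and held reads in CCRF-CEM alone of these. It had 4.26, 4.98 and 3.91 TPM in BRM014 libraries of CCRF-CEM cells, against 12.3, 14.3 and 9.51 TPM in DMSO libraries, and fell (log2 fold change -1.26 ± 0.11, adjusted p = 2.01e-07). The groups did not overlap. In KOPT-K1 and TALL-1 cells no library held a MYCN read. Against a floor of 3 reads per library, the CCRF-CEM DMSO mean was at least 88.7-fold higher than in any KOPT-K1 DMSO library and at least 106-fold higher than in any TALL-1 DMSO library. Jurkat libraries held 3 to 36 MYCN reads, at 0.078 to 0.905 TPM, under the level needed for testing. MYC mRNA exceeded MYCN mRNA in every CCRF-CEM library, since MYC averaged 26.2 ± 2.62 TPM there under BRM014 and MYCN 4.39 ± 0.546 TPM.

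MAX, the shared partner of MYC and of its antagonists, fell at 6 h of BRM014 in each line in which MYC fell, as MLX also did. In Jurkat cells MAX had 30.8, 33.4 and 32.1 TPM after 6 h of BRM014, against 45.5, 43.6 and 47.6 TPM in DMSO (-0.49 ± 0.041, adjusted p = 2.28e-09). At 8 d it had 46.0, 43.5 and 43.6 TPM under BRM014, against 47.8, 45.0 and 44.7 TPM in DMSO, and these overlapped (-0.047 ± 0.041, adjusted p = 0.333). The effect at 8 d minus that at 6 h was 0.45 ± 0.058, adjusted p = 1.94e-06, so the MAX fall was smaller at 8 d. Under median-ratio rescaling MAX was called lower at 8 d too (-0.10, adjusted p = 0.0242). CCRF-CEM libraries held 61.0, 64.4 and 59.9 TPM of MAX under BRM014, against 78.5, 80.7 and 70.6 TPM in DMSO (-0.30 ± 0.049, adjusted p = 0.000115). TALL-1 libraries held 65.2, 67.4 and 69.1 TPM, against 89.8, 92.2 and 85.9 TPM (-0.40 ± 0.049, adjusted p = 7.52e-06). In KOPT-K1 cells, with 81.1, 83.4 and 84.0 TPM under BRM014, against 83.2, 83.1 and 81.2 TPM in DMSO, the difference was 0.0055 ± 0.049 (95% interval -0.10 to 0.11, adjusted p = 0.967).

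Guides raised MAX slightly or left it uncalled. MAX had 56.2, 52.5 and 55.1 TPM in gSMARCA4 libraries, against 46.8, 46.4 and 45.4 TPM in gAAVS1 libraries, and rose by 0.24 ± 0.041, adjusted p = 7.78e-05. It had 51.4, 50.5 and 50.2 TPM in gARID1A_1B libraries (0.13 ± 0.041, adjusted p = 0.0139) and 51.0, 50.9 and 48.9 TPM in gARID1A libraries (0.12 ± 0.041, adjusted p = 0.0422). With gSMARCA4_A2, the group with the lowest MYC, MAX had 49.4, 49.0 and 46.0 TPM and was not called (0.058 ± 0.041, adjusted p = 0.227). It was lower there than in gSMARCA4 cells (-0.18 ± 0.041, adjusted p = 0.00172). The MAX call in gARID1A cells was lost in 8 alternatives, of which 5 left out a library (gAAVS1 replicates 1, 2 and 3 and gARID1A replicates 1 and 2, with adjusted p of 0.0699, 0.0869, 0.12, 0.111 and 0.125). That in gARID1A_1B cells was lost without gAAVS1 replicate 3 (adjusted p = 0.0526). MAX overlaps FNTB and the read-through gene CHURC1-FNTB on the opposite strand, and the Jurkat kit does not record strand. These averaged 17.6 and 31.1 TPM over the Jurkat libraries, against 46.4 TPM for MAX.

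MXD4, an antagonist of MYC that recruits repressors with MAX, was the member that rose most. It is encoded at chr4:2247432-2262109 in GRCh38.p14. At 6 h Jurkat libraries held 10.9, 11.5 and 9.33 TPM of MXD4 under BRM014, against 8.72, 7.23 and 8.48 TPM in DMSO, a rise of 0.34 ± 0.098, adjusted p = 0.00716 that was not called without DMSO 6 h replicate 2 (0.26, adjusted p = 0.051). At 8 d they held 39.8, 41.0 and 44.5 TPM under BRM014, against 13.3, 12.1 and 9.23 TPM in DMSO. The 8 d libraries under BRM014 were all far above every DMSO library, with a mean 3.62 times that of DMSO (1.78 ± 0.098, adjusted p = 1.4e-12). The effect at 8 d exceeded that at 6 h by 1.45 ± 0.14, adjusted p = 3.01e-08. Only 121 of 17936 genes had a higher fold change than MXD4 at 8 d. Without inhibitor MXD4 was also higher at 8 d than at 6 h, by 0.45 ± 0.098, adjusted p = 0.0013, a call lost in a fit of those DMSO groups alone (adjusted p = 0.0728). The sample labels name no run for the 6 h and 8 d libraries. Time and a separate run therefore cannot be told apart in DMSO.

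Guides gave a graded rise of MXD4. gSMARCA4_A2 libraries held 50.5, 49.7 and 45.4 TPM, gARID1A_1B libraries 26.9, 26.3 and 25.8 TPM and gSMARCA4 libraries 23.6, 18.9 and 19.7 TPM, against 12.0, 11.1 and 12.1 TPM in gAAVS1 libraries. gARID1A libraries, at 12.4, 12.2 and 12.2 TPM, were higher than gAAVS1 by 0.062 ± 0.098, adjusted p = 0.708 and were not called. The means with gSMARCA4_A2, gARID1A_1B and gSMARCA4 were 4.15, 2.25 and 1.77 times the gAAVS1 mean. Their log2 fold changes were 1.96 ± 0.098, adjusted p = 4.25e-13, 1.11 ± 0.098, adjusted p = 8.46e-09 and 0.77 ± 0.098, adjusted p = 1.64e-06. MXD4 was higher in gARID1A_1B than in gARID1A cells (log2 fold change 1.04 ± 0.098, adjusted p = 9.02e-08) and higher in gSMARCA4_A2 than in gSMARCA4 cells (1.19 ± 0.098, adjusted p = 1.4e-08). MXD4 was higher in gSMARCA4 than in gARID1A cells (0.71 ± 0.098, adjusted p = 7.62e-06) and higher in gSMARCA4_A2 than in gARID1A_1B cells (0.86 ± 0.098, adjusted p = 2.4e-07). In gARID1A_1B cells MXD4 rose although MYC was not below the gAAVS1 level.

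Of the other lines, TALL-1 alone had a called rise of MXD4. TALL-1 libraries held 34.6, 31.0 and 52.3 TPM under BRM014, against 15.0, 16.9 and 18.0 TPM in DMSO (1.16 ± 0.14, adjusted p = 6.91e-06), and replicate 3 stood above the other BRM014 libraries. CCRF-CEM libraries held 16.6, 15.3 and 16.0 TPM under BRM014, against 14.9, 14.3 and 14.5 TPM in DMSO (0.12 ± 0.14, adjusted p = 0.503). All CCRF-CEM BRM014 libraries lay above the DMSO libraries, but by little. KOPT-K1 libraries held 6.87, 7.34 and 8.63 TPM under BRM014, against 8.09, 8.62 and 9.63 TPM in DMSO (-0.19 ± 0.14, adjusted p = 0.341). The TALL-1 effect exceeded the CCRF-CEM effect by 1.04 ± 0.20, adjusted p = 0.00158 and the KOPT-K1 effect by 1.35 ± 0.20, adjusted p = 0.000187. CCRF-CEM cells, with the largest fall of MYC at 6 h, therefore had no called change of MXD4 at that time.

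**Figure D2:**
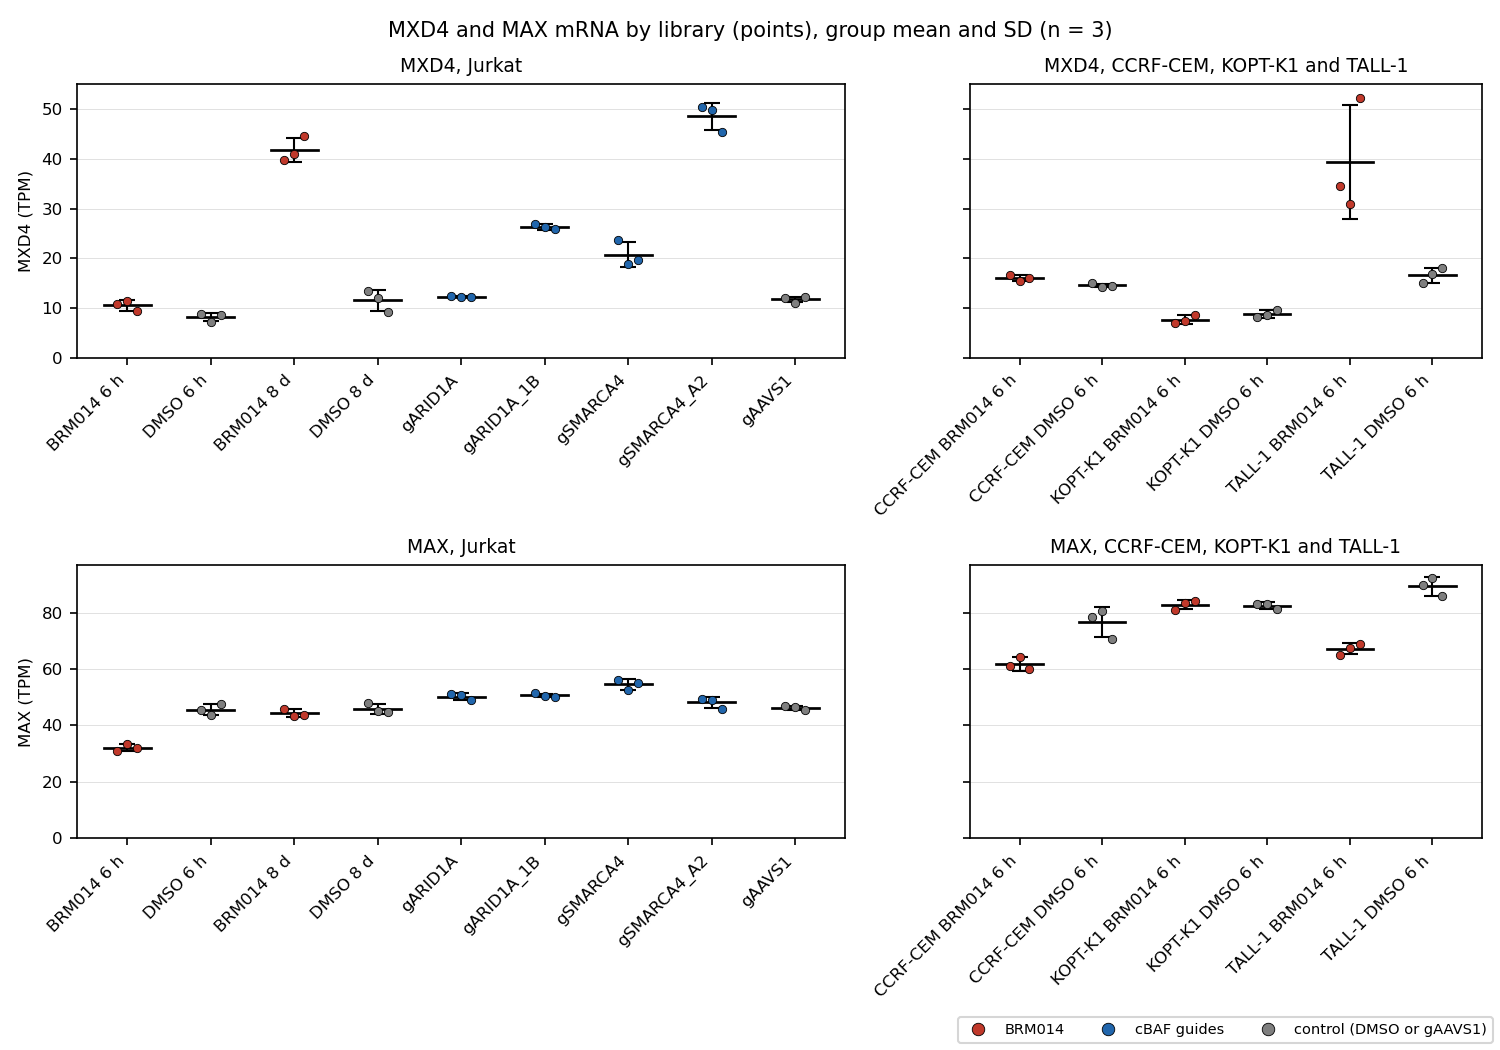
MXD4 (top) and MAX (bottom) mRNA in TPM in each library, with Jurkat groups at left and the other lines at right, points for libraries and bars for the mean and SD (n = 3). MXD4 stands high in BRM014 at 8 d, in gSMARCA4_A2, gARID1A_1B and gSMARCA4 cells and in TALL-1 cells under BRM014, while MAX stands low under BRM014 at 6 h in Jurkat, CCRF-CEM and TALL-1 cells.

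MXI1, another antagonist of the MXD family, went different ways in Jurkat guides and in the inhibitor-treated lines. It fell in CCRF-CEM cells, which held 8.69, 9.38 and 9.54 TPM under BRM014, against 14.2, 16.2 and 14.9 TPM in DMSO (-0.66 ± 0.13, adjusted p = 0.000814). It fell in TALL-1 cells, with 6.42, 8.26 and 10.5 TPM, against 11.5, 11.4 and 13.8 TPM (-0.51 ± 0.13, adjusted p = 0.00532). In KOPT-K1 cells it had 5.03, 3.73 and 4.08 TPM, against 3.81, 3.71 and 3.03 TPM, and was not called (0.22 ± 0.13, adjusted p = 0.222). Both falls differed from the KOPT-K1 effect (-0.88 ± 0.19, adjusted p = 0.00449, CCRF-CEM minus KOPT-K1, and -0.74 ± 0.19, adjusted p = 0.0118, TALL-1 minus KOPT-K1).

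In Jurkat cells MXI1 rose with gSMARCA4_A2, which had 15.8, 16.2 and 14.4 TPM, against 11.7, 11.3 and 11.1 TPM in gAAVS1 libraries (0.41 ± 0.066, adjusted p = 1.4e-05). It rose with gSMARCA4 at 14.9, 14.3 and 12.7 TPM (0.27 ± 0.066, adjusted p = 0.00216) and with gARID1A_1B at 13.9, 12.9 and 12.6 TPM (0.19 ± 0.066, adjusted p = 0.0237). The gARID1A_1B call was lost without gAAVS1 replicate 2 or 3 or gARID1A_1B replicate 1 (adjusted p = 0.0586, 0.0699 and 0.109). gARID1A libraries had 13.6, 12.3 and 12.0 TPM and BRM014 moved MXI1 by -0.070 ± 0.066, adjusted p = 0.417 at 6 h and -0.027 ± 0.066, adjusted p = 0.75 at 8 d, none of them called. MXI1 was itself higher in DMSO at 8 d, with 14.2, 14.2 and 13.4 TPM, than in DMSO at 6 h, with 9.35, 8.16 and 9.35 TPM (0.58 ± 0.066, adjusted p = 2.85e-06). Here too, time and a separate run cannot be told apart.

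MXD1, the founding member of the MXD family, was low in all lines and fell in CCRF-CEM and KOPT-K1 cells. CCRF-CEM libraries held 3.30, 3.03 and 2.86 TPM under BRM014, against 5.96, 6.90 and 5.18 TPM in DMSO (-0.78 ± 0.14, adjusted p = 0.00033). KOPT-K1 libraries held 0.770, 1.02 and 0.964 TPM, against 2.93, 2.04 and 2.71 TPM (-0.89 ± 0.14, adjusted p = 0.00016), and no library of these groups overlapped. The KOPT-K1 value was -1.38 with a pseudocount of 0.1 and -1.46 with limma-voom on recovered reads, since a pseudocount of 1 shrinks a fold near 1 TPM. TALL-1 libraries held 1.94, 1.52 and 2.90 TPM, against 1.53, 1.93 and 1.76 TPM (0.17 ± 0.14, adjusted p = 0.386), and differed in effect from CCRF-CEM by 0.95 ± 0.20, adjusted p = 0.00356 and from KOPT-K1 by 1.05 ± 0.20, adjusted p = 0.00156. With the same alternatives the difference from KOPT-K1 was 1.61 and 1.67. Jurkat BRM014 moved MXD1 by -0.077 at 6 h and -0.085 at 8 d (adjusted p = 0.408 and 0.321).

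Guides moved MXD1 both ways. It fell with gARID1A, which had 2.89, 2.29 and 2.47 TPM, against 3.81, 3.53 and 3.36 TPM in gAAVS1 libraries (-0.37 ± 0.072, adjusted p = 0.000783), and with gSMARCA4 at 2.87, 2.84 and 2.96 TPM (-0.23 ± 0.072, adjusted p = 0.0137). With gSMARCA4_A2 it rose to 4.47, 4.16 and 4.17 TPM (0.21 ± 0.072, adjusted p = 0.0168), and it was higher there than in gSMARCA4 cells by 0.44 ± 0.072, adjusted p = 7.56e-05. gARID1A_1B libraries had 3.13, 3.57 and 2.83 TPM and were not called against gAAVS1 (-0.13 ± 0.072, adjusted p = 0.155). Without gARID1A_1B replicate 2 they were called lower (adjusted p = 0.0485). The gSMARCA4 call was lost without gAAVS1 replicate 1 (adjusted p = 0.0676). The gSMARCA4_A2 call was lost under median-ratio rescaling (0.13, adjusted p = 0.101), without gAAVS1 replicate 3 (adjusted p = 0.0745) and without gSMARCA4_A2 replicate 1 (adjusted p = 0.0679).

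MXD3, the family member linked to cells in S phase, had the highest mean TPM of the 6 antagonists in the DMSO groups of all 4 lines and fell in KOPT-K1 cells. KOPT-K1 libraries held 104, 106 and 104 TPM under BRM014, against 132, 133 and 127 TPM in DMSO, without overlap (-0.31 ± 0.061, adjusted p = 0.000813). In TALL-1 cells it had 109, 115 and 99.3 TPM, against 121, 120.1 and 107 TPM (-0.11 ± 0.061, adjusted p = 0.176). CCRF-CEM libraries held 49.2, 51.1 and 54.2 TPM, against 58.1, 53.2 and 57.0 TPM (-0.12 ± 0.061, adjusted p = 0.115), and with the replicate number as a block, which paired the CCRF-CEM libraries, the adjusted p was 0.0225. Under median-ratio rescaling MXD3 was called lower in TALL-1 and CCRF-CEM cells (adjusted p = 0.0474 and 0.0131), and in TALL-1 cells also without DMSO replicate 3 (adjusted p = 0.0438).

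In Jurkat cells MXD3 was lower with gSMARCA4_A2, at 38.7, 40.4 and 41.0 TPM, against 50.3, 48.8 and 51.7 TPM in gAAVS1 libraries (-0.32 ± 0.059, adjusted p = 6.66e-05). It was -0.17 ± 0.059, adjusted p = 0.0212 with gSMARCA4 and -0.18 ± 0.059, adjusted p = 0.0137 after 8 d of BRM014. The gSMARCA4 call was lost without gAAVS1 replicate 3 or gSMARCA4 replicate 1 or 2 (adjusted p = 0.0794, 0.0754 and 0.0608), and the 8 d call without BRM014 8 d replicate 2 (adjusted p = 0.0532). It was not called at 6 h, with gARID1A or with gARID1A_1B (log2 fold changes -0.075, -0.0044 and -0.13). Without DMSO 6 h replicate 2 it was called lower at 6 h (adjusted p = 0.0135), and with only the groups compared in the fit it was called lower with gARID1A_1B (adjusted p = 0.0251). MXD3 overlaps PRELID1 on the opposite strand, which averaged 117 TPM over the Jurkat libraries, against 46.8 TPM for MXD3, so these Jurkat values can hold PRELID1 reads.

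MNT, which keeps many MYC target genes low and is present in most cells, changed in opposite directions in KOPT-K1 and TALL-1 cells. TALL-1 libraries held 6.56, 6.11 and 7.05 TPM under BRM014, against 9.53, 9.28 and 9.67 TPM in DMSO (-0.47 ± 0.093, adjusted p = 0.000658). KOPT-K1 libraries held 7.51, 5.87 and 7.79 TPM, against 5.40, 5.50 and 5.09 TPM (0.34 ± 0.093, adjusted p = 0.00904). The effects differed by -0.81 ± 0.13, adjusted p = 0.000401, TALL-1 minus KOPT-K1. The KOPT-K1 call was lost without BRM014 replicate 3 (adjusted p = 0.0506). CCRF-CEM libraries held 12.3, 10.8 and 12.2 TPM, against 12.0, 13.4 and 10.8 TPM, and were not called (-0.033 ± 0.093, adjusted p = 0.809). MNT ranged from 11.2 to 16.3 TPM over the Jurkat libraries, and its called difference there against a control was -0.13 ± 0.053, adjusted p = 0.0495 with gSMARCA4, a call lost in 9 of 15 alternatives. Without gSMARCA4 replicates 1, 2 and 3 its adjusted p was 0.0756, 0.17 and 0.0584, and without gAAVS1 replicates 1 and 2 it was 0.102 and 0.153. With gSMARCA4_A2 MNT was called lower only under median-ratio rescaling among the alternatives (-0.12, adjusted p = 0.0269).

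MGA, a large scaffold that joins MAX to a Polycomb complex, was called in a single comparison with a control. It averaged 37.4 ± 1.60 TPM under BRM014 at 6 h, against 37.1 ± 0.566 TPM in DMSO, and 30.1 ± 3.23 TPM at 8 d, against 33.1 ± 3.18 TPM. Guide groups averaged 34.8 ± 1.34 TPM (gARID1A), 33.5 ± 1.91 TPM (gARID1A_1B), 38.1 ± 2.39 TPM (gSMARCA4) and 38.2 ± 2.37 TPM (gSMARCA4_A2), against 37.1 ± 1.95 TPM in gAAVS1 cells. No Jurkat comparison with a control was called for MGA, but its 8 d difference of -0.13 (adjusted p = 0.116) was called lower under median-ratio rescaling (-0.19, adjusted p = 0.00983), with limma-voom on recovered reads (adjusted p = 0.0301), without DMSO 8 d replicate 2 (adjusted p = 0.0164) and without BRM014 8 d replicate 2 (adjusted p = 0.0143). In CCRF-CEM cells its difference of -0.13 (adjusted p = 0.163) was called lower under median-ratio rescaling and without DMSO replicate 3 (adjusted p = 0.0328 and 0.0189). Its call against a control was in KOPT-K1 cells, with 25.9, 23.3 and 24.1 TPM under BRM014, against 21.5, 21.6 and 20.6 TPM in DMSO (0.19 ± 0.072, adjusted p = 0.0436). That call was lost under median-ratio rescaling (0.12, adjusted p = 0.227), without any 1 of the DMSO replicates (adjusted p = 0.0764, 0.0724 and 0.125) and without BRM014 replicate 1 or 3 (adjusted p = 0.163 and 0.0774).

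MLX, the MAX-like partner of the glucose sensors, fell at 6 h of BRM014 in all 4 lines, KOPT-K1 included. Jurkat libraries held 74.2, 81.1 and 76.3 TPM under BRM014, against 92.8, 103 and 95.1 TPM in DMSO (-0.33 ± 0.043, adjusted p = 1.74e-06). KOPT-K1 libraries held 64.9, 66.1 and 67.0 TPM, against 97.4, 101 and 98.0 TPM (-0.58 ± 0.054, adjusted p = 7.53e-07). TALL-1 libraries held 60.6, 59.4 and 65.4 TPM, against 76.6, 77.1 and 87.3 TPM (-0.37 ± 0.054, adjusted p = 4.08e-05), and CCRF-CEM libraries 87.9, 83.8 and 92.7 TPM, against 103, 99.3 and 102 TPM (-0.20 ± 0.054, adjusted p = 0.00571). In each line every BRM014 library lay below every DMSO library. The KOPT-K1 fall was deeper than that of CCRF-CEM, by 0.37 ± 0.076, adjusted p = 0.003, CCRF-CEM minus KOPT-K1.

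At 8 d MLX had 75.8, 74.7 and 73.0 TPM under BRM014, against 77.6, 81.0 and 79.3 TPM in DMSO (-0.089 ± 0.043, adjusted p = 0.076), and the effect was smaller than at 6 h by 0.24 ± 0.060, adjusted p = 0.0029. At 8 d MLX was called lower under median-ratio rescaling (adjusted p = 0.00766). The guide groups averaged 81.4 ± 2.67 TPM (gARID1A), 80.4 ± 2.60 TPM (gARID1A_1B), 81.6 ± 1.60 TPM (gSMARCA4) and 79.5 ± 3.31 TPM (gSMARCA4_A2), against 81.9 ± 2.00 TPM in gAAVS1 cells, and none was called, though gSMARCA4_A2 was called lower under median-ratio rescaling (-0.14, adjusted p = 0.0112). MLX overlaps PSMC3IP on the opposite strand, which averaged 50.3 TPM over the Jurkat libraries, against 81.4 TPM for MLX. The kit of the other lines keeps the strand, and whether their reads were counted by strand is not given in the sources used here.

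Of the MLX partners and outputs, 3 of 4 listed genes were tested. MLXIP, the MONDO factor that pairs with MLX, fell with gARID1A (-0.31 ± 0.054, adjusted p = 0.000252), gARID1A_1B (-0.39 ± 0.054, adjusted p = 5.88e-06), gSMARCA4 (-0.20 ± 0.054, adjusted p = 0.00527) and gSMARCA4_A2 (-0.19 ± 0.054, adjusted p = 0.00394), and in CCRF-CEM cells (-0.65 ± 0.080, adjusted p = 7.88e-06). TXNIP and ARRDC4 are arrestin-family genes that MONDO-MLX pairs raise when glucose is high. TXNIP was called lower at 6 h in Jurkat (-0.86 ± 0.31, adjusted p = 0.0299), CCRF-CEM (-1.54 ± 0.14, adjusted p = 3.85e-07) and KOPT-K1 cells (-0.41 ± 0.14, adjusted p = 0.0327). At 8 d Jurkat libraries held 39.9, 36.5 and 37.2 TPM of TXNIP under BRM014, against 4.45, 17.0 and 21.6 TPM in DMSO, where replicate 1 stood far below the others. ARRDC4 rose in Jurkat cells at 6 h (0.52), at 8 d (0.98), with gARID1A_1B (0.71), gSMARCA4 (0.53) and gSMARCA4_A2 (0.95), always from under 1 TPM in the control, and it fell in TALL-1 cells, with 11.5, 11.8 and 12.9 TPM under BRM014, against 58.2, 66.4 and 45.0 TPM in DMSO (-2.12 ± 0.14, adjusted p = 1.25e-08).

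Counted over the network, the share of members called stood on either side of the share of all genes called, and among the comparisons with a control the gap was widest for gSMARCA4, where 7 of 9 members were called. Of 9 members tested in Jurkat cells, 1 rose and 3 fell at 6 h of BRM014, where 47.4% of all genes were called, and 1 rose and 2 fell at 8 d, where 59.9% were. With gARID1A 2 rose and 1 fell (20.9% of all genes called), with gARID1A_1B 4 rose and 0 fell (40.0%), with gSMARCA4 3 rose and 4 fell (40.9%), and with gSMARCA4_A2 3 rose and 2 fell (62.1%). Of 10 members tested in the other lines, none rose and 6 fell in CCRF-CEM cells (49.8% of all genes called), 2 rose and 3 fell in KOPT-K1 cells (38.1%), and 1 rose and 5 fell in TALL-1 cells (45.9%). MYCN is among these 10 although KOPT-K1 and TALL-1 libraries held no MYCN read. It could not be called in those lines and enters their member medians as no change. Of the 4 calls with gARID1A_1B, 2, 1 and 2 were made without gAAVS1 replicate 2, gAAVS1 replicate 3 and gARID1A_1B replicate 1. Of the 7 with gSMARCA4, 4 were made without gAAVS1 replicate 1, and of the 5 in KOPT-K1 cells, 3 without BRM014 replicate 3. At 8 d the count was 6 under median-ratio rescaling. These counts under alternatives stand without the share of all genes called in those fits. The members' median log2 fold change was -0.25 in CCRF-CEM and -0.24 in TALL-1 cells, against 0.050 and 0.034 over all genes, and lay between -0.085 and 0.043 in the Jurkat comparisons with a control.

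The remaining comparisons set guide groups, times and lines against each other. Between guide groups, 2 members were higher and 1 lower in gARID1A_1B than in gARID1A cells (20.9% of all genes called), and 2 were higher and 2 lower in gSMARCA4_A2 than in gSMARCA4 cells (38.8%). In gSMARCA4 against gARID1A cells 2 were higher and 2 lower (38.4%), and in gSMARCA4_A2 against gARID1A_1B cells 4 were higher and 2 lower (57.1%). The last count depended on the scaling. Under median-ratio rescaling the higher calls of MXI1 (0.097, adjusted p = 0.221) and MGA (0.056, adjusted p = 0.451) were lost there. MAX (-0.20, adjusted p = 0.000142), MNT (-0.14, adjusted p = 0.0141) and MLX (-0.14, adjusted p = 0.00948) were then called lower. The BRM014 effect was higher at 8 d than at 6 h for 3 members and lower for none (44.2%), while DMSO at 8 d against DMSO at 6 h had 2 higher and 2 lower (35.3%). The effect in CCRF-CEM against KOPT-K1 cells was higher for 1 member and lower for 5 (18.3% of all genes called), that in TALL-1 against CCRF-CEM higher for 4 and lower for 1 (20.4%), and that in TALL-1 against KOPT-K1 higher for 2 and lower for 4 (21.4%). These shares of members, 6, 5 and 6 of 10, stood above the shares of all genes. Some of the calls between guide groups and times were lost without 1 library. These were MXD1 in gARID1A_1B against gARID1A cells (4 of 6 fits, adjusted p up to 0.149), MAX and MXD3 in gSMARCA4 against gARID1A cells (3 and 4 of 6 fits, up to 0.112 and 0.0995), MGA in gSMARCA4_A2 against gARID1A_1B cells (3 of 6, up to 0.163) and MNT in DMSO at 8 d against 6 h (2 of 6, up to 0.0758). MYCN counts among those of CCRF-CEM against KOPT-K1 and of TALL-1 against CCRF-CEM cells although KOPT-K1 and TALL-1 libraries held no MYCN read, and its call was lost in both with limma-voom on recovered reads (adjusted p = 0.275 and 0.209).

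**Figure D3:**
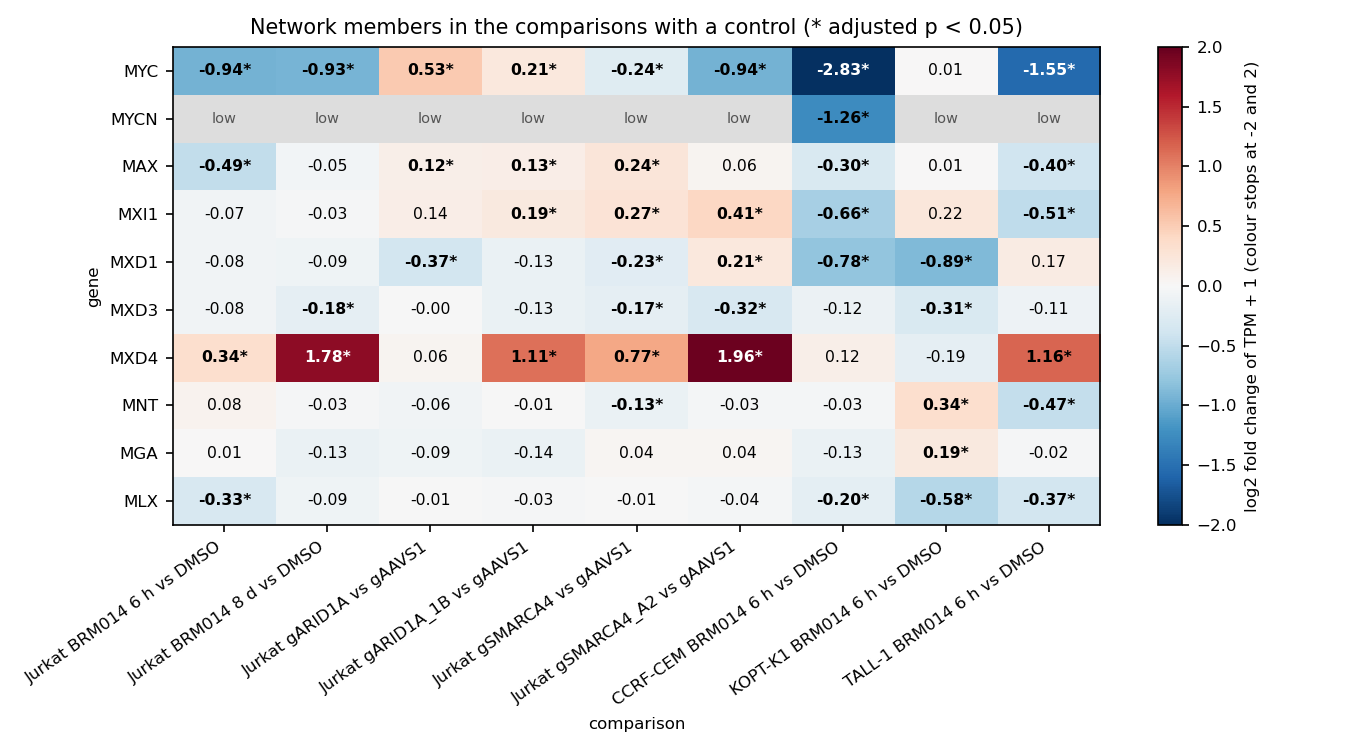
Log2 fold change of TPM + 1 of each member (rows) in the 9 comparisons with a control (columns), coloured from blue (lower) to red (higher), with asterisks for an adjusted p under 0.05. Grey cells marked "low" are MYCN where it was too low to test or had 0 reads, and the strongest colours are MYC in CCRF-CEM cells at -2.83 and MXD4 in gSMARCA4_A2 cells at 1.96.

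The lines differed in the network before any treatment. In DMSO, 6 members were higher and 1 lower in CCRF-CEM than in KOPT-K1 cells (62.5% of all genes called), 3 higher and 5 lower in TALL-1 than in CCRF-CEM cells (67.6%), and 4 higher and 4 lower in TALL-1 than in KOPT-K1 cells (70.5%). Without 1 library, calls were lost for MXD1 and MXD3 in TALL-1 against KOPT-K1 cells (4 and 3 of 6 fits, adjusted p up to 0.116 and 0.127) and for MGA in TALL-1 against CCRF-CEM cells (1 of 6, 0.058, without CCRF-CEM replicate 3). MXI1 averaged 15.1 ± 0.992 TPM in CCRF-CEM and 12.2 ± 1.31 TPM in TALL-1 cells, against 3.52 ± 0.425 TPM in KOPT-K1 cells (1.84 ± 0.13, adjusted p = 8.48e-09 and 1.55 ± 0.13, adjusted p = 4.51e-08). MNT and MGA were also lowest in KOPT-K1 cells. MNT averaged 12.1 ± 1.32 TPM in CCRF-CEM and 9.49 ± 0.196 TPM in TALL-1 cells, against 5.33 ± 0.216 TPM in KOPT-K1 cells. MXD3 went the other way, averaging 56.1 ± 2.56 TPM in CCRF-CEM cells, against 130.4 ± 3.38 TPM in KOPT-K1 cells (-1.20 ± 0.061, adjusted p = 9.2e-11).

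The balance of MYC mRNA against its antagonists was read within each library as MYC TPM over the summed TPM of MXI1, MXD1, MXD3, MXD4, MNT and MGA. It is a ratio of mRNA levels, given without a test, and not of proteins. In Jurkat cells it averaged 0.713 ± 0.0268 under BRM014 at 6 h, against 1.38 ± 0.0624 in DMSO, and 0.617 ± 0.0647 at 8 d, against 1.38 ± 0.0567 in DMSO. Guide groups ran 1.67 ± 0.0523 with gARID1A, 1.24 ± 0.0651 with gARID1A_1B, 0.928 ± 0.0792 with gSMARCA4 and 0.470 ± 0.0111 with gSMARCA4_A2, against 1.14 ± 0.0414 with gAAVS1. The gSMARCA4_A2 libraries, at 0.480, 0.458 and 0.472, were the lowest of all Jurkat libraries.

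In the other lines the ratio fell to 0.215 ± 0.0214 in CCRF-CEM cells under BRM014, against 1.40 ± 0.167 in DMSO, and was 0.183 ± 0.0337 in TALL-1 cells, against 0.565 ± 0.0781. KOPT-K1 cells had 1.26 ± 0.116 under BRM014, against 1.08 ± 0.121 in DMSO, with overlapping libraries. The summed antagonists were lower under BRM014 in CCRF-CEM cells, at 122 ± 2.89 TPM, against 137 ± 4.82 TPM in DMSO. They were also lower in KOPT-K1 cells, at 149 ± 1.43 TPM, against 172 ± 3.70 TPM. TALL-1 cells had 203 ± 5.71 TPM, against 195.5 ± 7.17 TPM. At 6 h in Jurkat cells the summed antagonists were level, at 122 ± 2.80 TPM under BRM014, against 122 ± 6.16 TPM in DMSO. At 8 d they were 143 ± 3.87 TPM, against 122 ± 3.92 TPM, and with gSMARCA4_A2 162 ± 5.59 TPM, against 129.6 ± 2.11 TPM with gAAVS1. MXD4 made up 29.3 ± 1.25% of that sum at 8 d under BRM014, against 9.48 ± 1.56% in DMSO, and 30.0 ± 0.755% with gSMARCA4_A2, against 9.03 ± 0.419% with gAAVS1. In TALL-1 cells its share was 19.3 ± 5.12% under BRM014, against 8.51 ± 1.02% in DMSO.

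**Figure D4:**
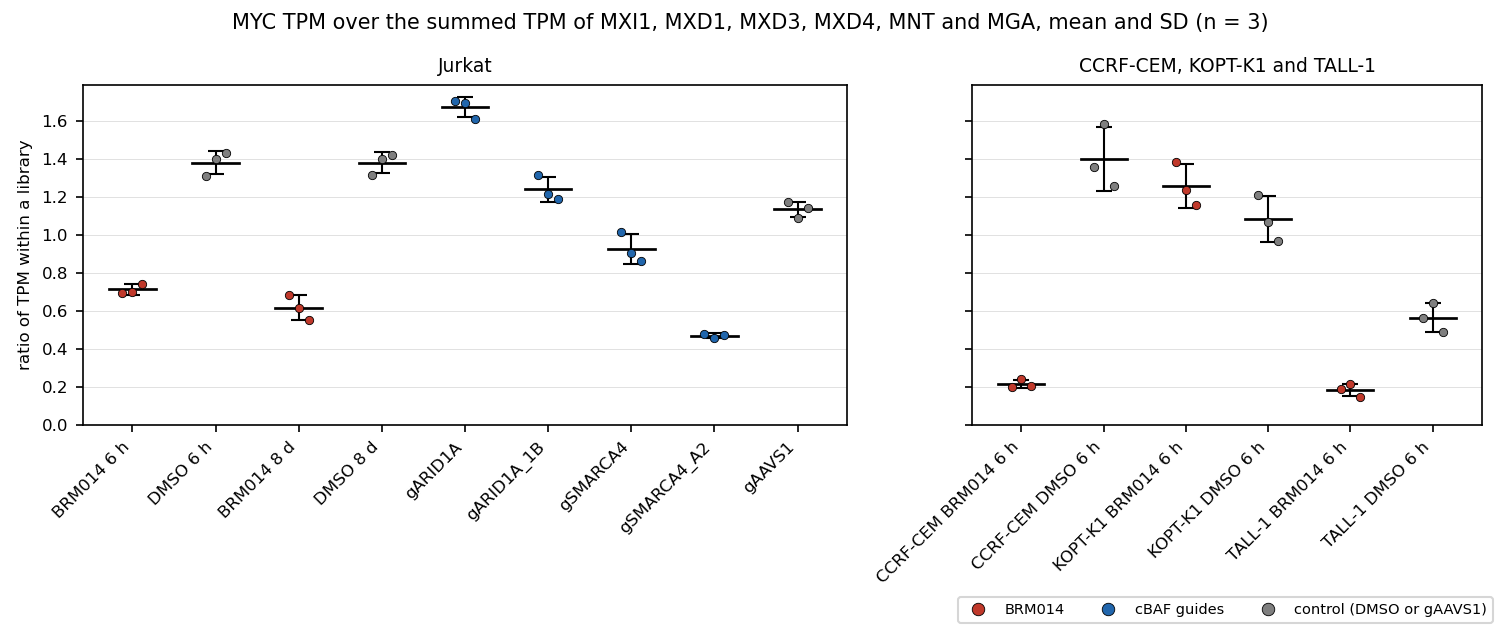
Ratio of MYC TPM to the summed TPM of the antagonists MXI1, MXD1, MXD3, MXD4, MNT and MGA (vertical axis, no unit) in each library, with bars for the mean and SD (n = 3). It is low under BRM014 in Jurkat, CCRF-CEM and TALL-1 cells and in gSMARCA4_A2 cells, and highest with gARID1A.

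Counts of genes called in the lists that follow are read against the shares of all genes called. List counts under an alternative stand without the shares of all genes in that alternative. In Jurkat cells 26.8% of all genes rose and 20.7% fell at 6 h of BRM014, and 36.9% rose and 23.0% fell at 8 d. With guides 7.72% rose and 13.2% fell in gARID1A cells, 17.0% and 23.1% in gARID1A_1B cells, 25.1% and 15.8% in gSMARCA4 cells and 40.9% and 21.1% in gSMARCA4_A2 cells. In CCRF-CEM cells 28.9% rose and 20.9% fell, in KOPT-K1 cells 22.9% and 15.2%, and in TALL-1 cells 26.6% and 19.3%.

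Genes listed as raised by MYC include enzymes of polyamine and nucleotide synthesis and ribosome assembly factors. They fell more often than they rose in 8 of the 9 comparisons with a control. Counts of falls ran in the order of the MYC changes over CCRF-CEM, TALL-1 and KOPT-K1 cells. Among Jurkat comparisons they were 14, 18 and 26 at 6 h, at 8 d and with gSMARCA4_A2, where MYC fell by nearly the same amount. They were lower, at 7, 6 and 1, with gSMARCA4, gARID1A_1B and gARID1A, where MYC fell less or rose. Whether MYC sets these counts was not tested. The share of the list that fell was above that of all genes in 7 of the 9, all but gARID1A and gARID1A_1B. Of 34 such genes tested, 26 fell and 1 rose with gSMARCA4_A2, 20 fell and none rose in CCRF-CEM cells, and 19 fell and 2 rose in TALL-1 cells. Over all genes, 21.1%, 20.9% and 19.3% fell in these comparisons. The list's median log2 fold change was -0.41 with gSMARCA4_A2, -0.37 in CCRF-CEM and -0.33 in TALL-1 cells, against 0.11, 0.050 and 0.034 over all genes. In Jurkat cells 14 fell and 4 rose at 6 h (median -0.14) and 18 fell and 3 rose at 8 d (median -0.22), where 20.7% and 23.0% of all genes fell. KOPT-K1 cells had 10 lower and 4 higher (median -0.028), where 15.2% of all genes fell. gARID1A cells, with raised MYC, had 7 of the 34 higher and 1 lower (median 0.095), where 7.72% of all genes rose. With gARID1A_1B 6 fell and 2 rose, a share of 17.6% lower, under the 23.1% of all genes that fell. With gSMARCA4 7 fell and 4 rose, where 15.8% of all genes fell. Under median-ratio rescaling the falls and rises were 15 and 2 at 6 h, 11 and 2 in KOPT-K1, 10 and 3 with gSMARCA4 and 0 and 7 with gARID1A, and with limma-voom on recovered reads 4 and 3 with gARID1A_1B.

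ODC1, the first enzyme of polyamine synthesis, fell at 6 h of BRM014 in all 4 lines. It had 254, 241 and 270.2 TPM in Jurkat cells under BRM014, against 414, 407 and 436 TPM in DMSO (-0.71 ± 0.074, adjusted p = 6.31e-08), and 109.9, 135 and 132 TPM in CCRF-CEM cells, against 433, 549 and 379 TPM (-1.83 ± 0.11, adjusted p = 5.78e-09). TALL-1 libraries held 113, 127 and 130.3 TPM, against 323, 363 and 345 TPM (-1.47 ± 0.11, adjusted p = 4.82e-08). In KOPT-K1 cells, where MYC was not called, ODC1 still had 289, 295 and 272 TPM under BRM014, against 634, 636 and 579 TPM in DMSO (-1.11 ± 0.11, adjusted p = 1.54e-06). At 8 d in Jurkat cells, where MYC was low, it had 329, 338 and 345 TPM under BRM014, against 274, 335 and 378 TPM in DMSO, with overlap (0.048 ± 0.074, adjusted p = 0.597). ODC1 and MYC therefore did not always move together.

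Other listed targets were as mixed. SLC19A1, the folate carrier, fell in Jurkat cells at 6 h (-0.62), in CCRF-CEM (-1.10) and in TALL-1 cells (-0.91), and NOLC1, a nucleolar assembly factor, fell in Jurkat cells at 6 h (-0.55) and in CCRF-CEM cells (-1.09). SHMT2, a mitochondrial one-carbon enzyme, averaged 68.5 ± 2.27 TPM at 8 d under BRM014, against 123 ± 17.4 TPM in DMSO (-0.82). PAICS, of purine synthesis, averaged 104 ± 3.95 TPM with gSMARCA4_A2, against 176 ± 3.21 TPM with gAAVS1 (-0.75), and NPM1, a nucleolar chaperone, 772 ± 14.7 TPM, against 1183 ± 24.1 TPM (-0.62). CCND2, a D-type cyclin, was among the listed genes that rose. It had 46.7, 50.8 and 47.9 TPM at 8 d under BRM014, against 29.6, 26.1 and 31.3 TPM in DMSO (0.72 ± 0.055, adjusted p = 2.34e-10), and rose with gARID1A (0.61), gARID1A_1B (0.93), gSMARCA4 (0.86) and gSMARCA4_A2 (0.93), from 30.3, 26.7 and 27.0 TPM in gAAVS1 libraries. At 6 h it was lower under BRM014, at 16.6, 15.9 and 14.9 TPM, against 22.6, 21.2 and 21.9 TPM in DMSO.

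Genes listed as lowered by MYC rose most often in Jurkat cells with gSMARCA4_A2 and at 8 d of BRM014. More of them fell than rose in CCRF-CEM and KOPT-K1 cells, and as many rose as fell in TALL-1 cells. Of 9 tested in Jurkat cells, 7 rose and none fell with gSMARCA4_A2 (median 0.41), and 6 rose and 1 fell at 8 d of BRM014 (median 0.65), where 40.9% and 36.9% of all genes rose. At 6 h 2 rose and 1 fell, with gSMARCA4 4 rose and none fell, with gARID1A none rose and 1 fell, and with gARID1A_1B 1 rose and 2 fell. Of these, only the share that rose with gSMARCA4, 44.4%, was above that of all genes, 25.1%. The gARID1A_1B count was 7 higher and 2 lower with limma-voom on recovered reads. Of 6 tested in the other lines, 1 rose and 4 fell in CCRF-CEM cells, 1 and 4 in KOPT-K1 cells, and 2 and 2 in TALL-1 cells, where 28.9%, 22.9% and 26.6% of all genes rose and 20.9%, 15.2% and 19.3% fell. With the median-ratio rescaling the count with gSMARCA4_A2 dropped to 5 higher and 0 lower, while that at 8 d stayed at 6 and 1. The rescaled counts were 0 and 4 in CCRF-CEM, 1 and 2 in TALL-1, 1 and 1 in gARID1A and 3 and 2 in gARID1A_1B cells.

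GADD45A, a growth arrest gene, showed the split. It had 27.1, 27.9 and 26.6 TPM at 8 d under BRM014 in Jurkat cells, against 11.4, 11.7 and 11.0 TPM in DMSO (1.19 ± 0.087, adjusted p = 1.26e-10), and 21.9, 21.0 and 22.5 TPM with gSMARCA4_A2, against 12.2, 9.82 and 9.85 TPM with gAAVS1 (0.98 ± 0.087, adjusted p = 3.41e-09). CCRF-CEM cells, with the deepest fall of MYC, held 6.39, 6.53 and 7.28 TPM under BRM014, against 12.2, 11.2 and 9.90 TPM in DMSO, and GADD45A fell (-0.65 ± 0.095, adjusted p = 4.43e-05). It also fell in KOPT-K1 cells (-0.83) and rose in TALL-1 cells (0.51), where its level was far higher at 247 ± 17.6 TPM under BRM014, against 173 ± 10.1 TPM in DMSO. NDRG1, a stress and differentiation gene, and CDKN1C, a cyclin-dependent kinase inhibitor, rose at 8 d (0.96 and 0.91) and with gSMARCA4_A2 (0.88 and 0.87), CDKN1C from under 1 TPM.

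**Figure D5:**
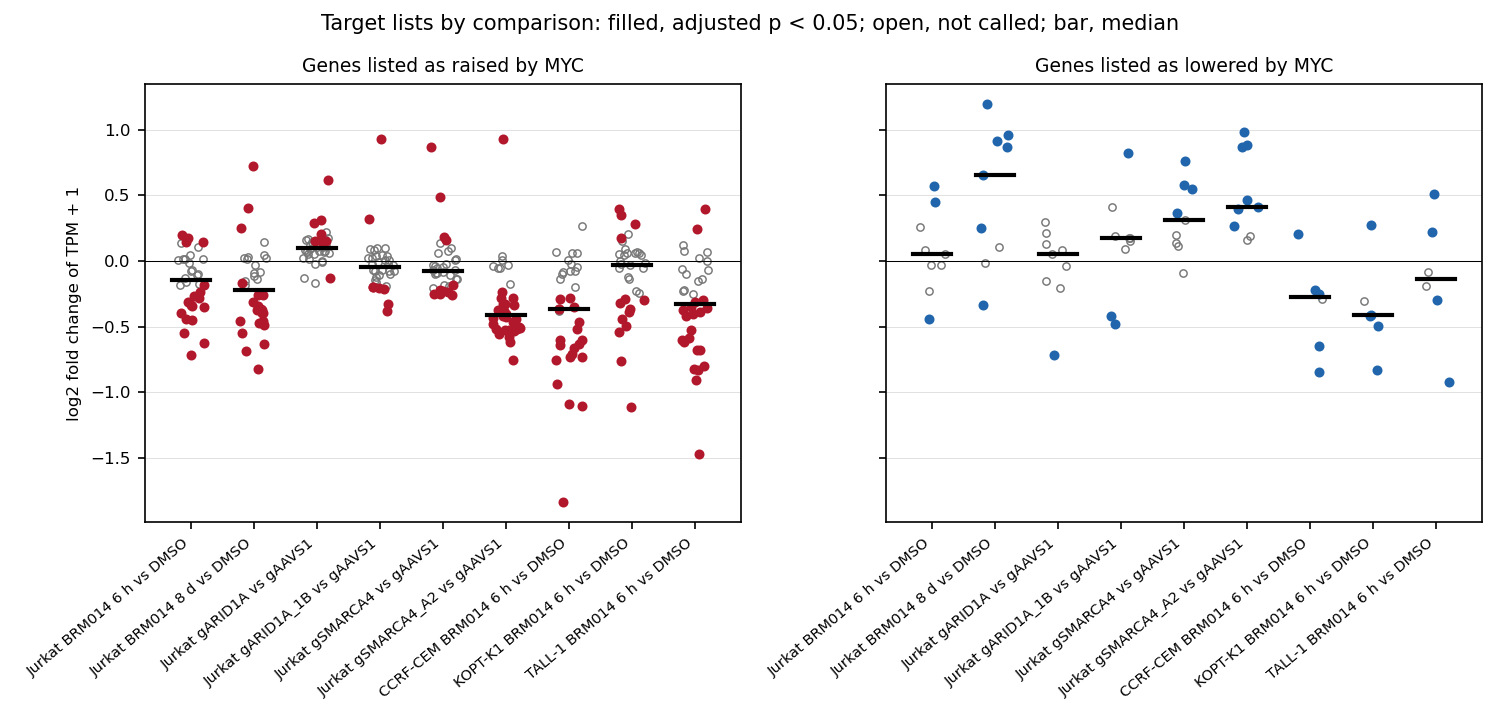
Log2 fold change of TPM + 1 of each tested gene listed as raised by MYC (left) or lowered by MYC (right) in the 9 comparisons with a control, filled where the adjusted p was under 0.05, with a bar at the list's median. The left medians run from -0.41 with gSMARCA4_A2 to 0.10 with gARID1A, and the right medians from -0.41 in KOPT-K1 cells to 0.65 at 8 d of BRM014 in Jurkat cells.

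Of 12 genes listed as controlling MYC transcription in T cells, 4 rose and 3 fell in KOPT-K1 cells, where MYC was not called. Over all genes 22.9% rose and 15.2% fell there. More of the list rose than fell in CCRF-CEM and TALL-1 cells too, as over all genes. The listed genes that fell in KOPT-K1 cells were NOTCH1, NOTCH3 and GATA3, and only these are described here for the 3 lines. NOTCH1, the receptor whose cleaved form drives MYC in T-ALL, averaged 43.9 ± 2.96 TPM in KOPT-K1 cells under BRM014, against 119 ± 5.59 TPM in DMSO (-1.42 ± 0.091, adjusted p = 1.69e-08). NOTCH3, its relative, averaged 4.09 ± 0.109 TPM, against 35.4 ± 2.86 TPM (-2.84 ± 0.15, adjusted p = 3.06e-09), and GATA3, a T lineage transcription factor, 36.3 ± 1.24 TPM, against 68.3 ± 7.90 TPM (-0.89 ± 0.082, adjusted p = 6.97e-07). In CCRF-CEM cells the log2 fold changes were -1.32 ± 0.091 for NOTCH1, -1.49 ± 0.15 for NOTCH3 and -1.27 ± 0.082 for GATA3. In TALL-1 cells they were -3.66 ± 0.091, -2.32 ± 0.15 and -1.61 ± 0.082, with NOTCH1 at 11.0 ± 1.14 TPM under BRM014, against 150.4 ± 5.66 TPM in DMSO. NOTCH1, NOTCH3 and GATA3 fell in KOPT-K1, CCRF-CEM and TALL-1 cells, by amounts that differed between the lines. These are mRNA levels and cleaved NOTCH1 was not measured. Whether these genes bear on MYC here was not tested.

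In Jurkat cells NOTCH3 was lower in all 6 comparisons with a control, with -1.49 at 6 h, -1.51 with gARID1A_1B and also -1.35 with gARID1A, where MYC was raised. MYB, a T-ALL transcription factor, was lower at 6 h of BRM014 (-0.78 ± 0.095, adjusted p = 6.65e-07) and with gARID1A_1B (-0.90 ± 0.095, adjusted p = 1.21e-07). TAL1, the leukaemic factor of Jurkat cells, was higher at 8 d (1.26 ± 0.074, adjusted p = 3.96e-12) and with gSMARCA4_A2 (1.28 ± 0.074, adjusted p = 5.15e-12), and GATA3 was higher with gSMARCA4_A2 (1.05 ± 0.13, adjusted p = 3.64e-07). Over the list of 12 regulators, 3 rose and 6 fell at 6 h, 5 and 2 at 8 d, 1 and 3 with gARID1A, 0 and 4 with gARID1A_1B, and 6 and 1 with gSMARCA4 and likewise with gSMARCA4_A2. In the other lines they were 5 and 4 in CCRF-CEM, and 4 and 3 in KOPT-K1 and in TALL-1 cells. Shares near those of all genes are no result about the list, and its share was above that of all genes for rises in 7 of the 9 comparisons and for falls in 6. The 6 of 12 that fell at 6 h stood against 20.7% of all genes and the 6 that rose with gSMARCA4 against 25.1%, while the rises with gARID1A, 8.33%, and at 6 h, 25.0%, were close to the 7.72% and 26.8% of all genes. Under median-ratio rescaling the counts became 2 and 7 at 6 h, 3 and 6 at 8 d, 1 and 4 with gARID1A_1B, 6 and 2 with gSMARCA4, 5 and 5 with gSMARCA4_A2, where FUBP1 changed sign, 4 and 5 in CCRF-CEM and 3 and 4 in TALL-1 cells.

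Cofactors of the network moved in both directions. Of 14 cofactors and corepressors, 7 rose and 3 fell in CCRF-CEM cells (4 and 5 under median-ratio rescaling), 7 rose and 1 fell in KOPT-K1, and 3 rose and 4 fell in TALL-1 cells. In Jurkat cells the counts were 6 and 3 at 6 h, 4 and 4 at 8 d, 0 and 2 with gARID1A, 0 and 5 with gARID1A_1B, 4 and 2 with gSMARCA4, and 6 and 6 with gSMARCA4_A2. Under median-ratio rescaling they were 2 and 4 with gARID1A_1B and 5 and 2 in KOPT-K1 cells. The 7 of 14 that rose in CCRF-CEM and in KOPT-K1 cells stood against 28.9% and 22.9% of all genes, while the 21.4% that fell in CCRF-CEM cells and at 6 h in Jurkat cells was close to the 20.9% and 20.7% of all genes. ZBTB17, the zinc-finger protein through which MYC represses, rose under BRM014 in every line, by 0.33 in Jurkat cells at 6 h, 0.42 in CCRF-CEM, 0.49 in KOPT-K1 and 0.70 in TALL-1 cells. BIN1, a MYC-binding tumour suppressor, averaged 9.45 ± 0.662 TPM in CCRF-CEM cells under BRM014, against 21.8 ± 1.37 TPM in DMSO (-1.12 ± 0.071, adjusted p = 8.5e-09), and 16.7 ± 0.972 TPM in KOPT-K1 cells, against 30.6 ± 1.84 TPM (-0.83 ± 0.071, adjusted p = 2.79e-07). KAT2A, an acetyltransferase that works with MYC, rose in KOPT-K1 cells (0.63).

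Of 11 genes that set the stability of MYC protein, at most 5 moved one way in any comparison with a control. At 8 d 3 rose and 5 fell, and with gSMARCA4_A2 3 rose and 4 fell. The counts were 3 and 2 at 6 h (0 and 3 under median-ratio rescaling), 1 and 3 with gARID1A, 3 and 4 with gARID1A_1B, 1 and 3 with gSMARCA4, 4 and 1 in CCRF-CEM, 1 and 1 in KOPT-K1 and 2 and 1 in TALL-1 cells. Under median-ratio rescaling they were 0 and 3 with gSMARCA4, 1 and 4 with gSMARCA4_A2, 1 and 1 in CCRF-CEM, 0 and 3 in KOPT-K1 and 1 and 2 in TALL-1 cells. The 45.5% of the list that fell at 8 d and the 36.4% that fell with gSMARCA4_A2 stood against 23.0% and 21.1% of all genes, and in KOPT-K1 and TALL-1 cells both shares of the list were under those of all genes. SKP2, a ubiquitin ligase subunit, averaged 28.4 ± 0.901 TPM with gSMARCA4_A2, against 41.3 ± 2.22 TPM with gAAVS1 (-0.52 ± 0.074, adjusted p = 3.07e-06). CIP2A, which protects MYC protein from dephosphorylation, averaged 20.7 ± 0.982 TPM, against 28.8 ± 1.90 TPM (-0.46 ± 0.061, adjusted p = 1.09e-06). FBXW7, the ligase subunit that marks phosphorylated MYC for destruction, fell in TALL-1 cells (-0.44 ± 0.064, adjusted p = 4.13e-05) and KOPT-K1 cells (-0.25 ± 0.064, adjusted p = 0.00556). MYC protein was not measured.

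MYC lies at chr8:127735434-127742951 in GRCh38.p14, in a region with few other genes that holds long-range enhancers and many long noncoding RNAs. Of 31 genes in the tables with an edge within 2 Mb of MYC, 8 were tested in Jurkat cells and 7 in the other lines. None of them rose in any comparison with a control. At 6 h and 8 d of BRM014 5 and 4 fell, with gARID1A, gARID1A_1B, gSMARCA4 and gSMARCA4_A2 2, 5, 5 and 6 fell, and in KOPT-K1, CCRF-CEM and TALL-1 cells 5, 4 and 4 fell. These were 25.0 to 75.0% of the genes tested near MYC, against 13.2 to 23.1% of all genes over the 9 comparisons. Some of these share reads, since MIR1204, MIR1205 and MIR1206 lie inside PVT1. LINC00977, LINC00861 and PVT1 are described next and were chosen after their values were seen.

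LINC00977, a noncoding RNA gene 1473.5 kb beyond MYC at higher coordinates, fell in all 9 comparisons with a control. It had 27.9, 40.0 and 31.6 TPM at 6 h under BRM014, against 103, 137 and 104 TPM in DMSO (-1.76 ± 0.11, adjusted p = 3.91e-11), and 8.30, 9.51 and 9.49 TPM at 8 d, against 123, 102 and 102 TPM (-3.44 ± 0.11, adjusted p = 2.81e-16). Guide libraries held 51.2, 46.6 and 43.9 TPM with gARID1A and 25.8, 22.9 and 22.7 TPM with gARID1A_1B. They held 16.3, 17.3 and 16.9 TPM with gSMARCA4 and 10.8, 10.0 and 10.5 TPM with gSMARCA4_A2, against 80.4, 89.0 and 82.5 TPM with gAAVS1. gARID1A thus lowered LINC00977 (-0.82 ± 0.11, adjusted p = 1.14e-05) in the cells where MYC was raised. CCRF-CEM libraries held 12.0, 20.4 and 9.37 TPM under BRM014, against 80.1, 104 and 60.1 TPM in DMSO (-2.50 ± 0.22, adjusted p = 4.11e-07). In KOPT-K1 cells, where MYC was not called, libraries held 68.8, 70.5 and 62.9 TPM, against 118, 109 and 104 TPM (-0.70 ± 0.22, adjusted p = 0.0219), and in TALL-1 cells the RNA averaged 0.370 ± 0.227 TPM, against 1.20 ± 0.131 TPM.

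LINC00861, 1784.2 kb before MYC at lower coordinates, was called lower in 8 of these 9 comparisons. KOPT-K1 libraries held 8.27, 6.40 and 7.81 TPM under BRM014, against 22.2, 19.7 and 21.4 TPM in DMSO (-1.38 ± 0.11, adjusted p = 1.29e-07), and TALL-1 libraries 0.928, 1.31 and 0.927 TPM, against 8.15, 7.65 and 6.03 TPM (-2.01 ± 0.11, adjusted p = 1.36e-09). Guide groups averaged 1.72 ± 0.210 TPM with gARID1A and 1.47 ± 0.241 TPM with gSMARCA4_A2, against 6.90 ± 0.925 TPM with gAAVS1. In CCRF-CEM cells it was at most 0.173 TPM in every library. PVT1, the noncoding neighbour 51.6 kb beyond MYC, fell in all 4 lines at 6 h. It had 9.47, 8.23 and 11.5 TPM in Jurkat cells under BRM014, against 17.0, 15.7 and 16.1 TPM in DMSO (-0.70 ± 0.085, adjusted p = 6.88e-07), and 0.713, 0.548 and 0.937 TPM in CCRF-CEM cells, against 3.12, 3.52 and 3.68 TPM (-1.36 ± 0.11, adjusted p = 1.33e-07). KOPT-K1 libraries held 5.18, 4.88 and 5.58 TPM, against 9.19, 10.2 and 8.25 TPM (-0.71 ± 0.11, adjusted p = 0.000119). At 8 d PVT1 was not called in Jurkat cells (-0.053 ± 0.085, adjusted p = 0.616), while MYC was low, so PVT1 and MYC parted both in KOPT-K1 cells and at 8 d.

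The genes whose levels followed MYC most closely were not members of the network. Over the 27 Jurkat libraries and the 12173 genes with a mean of at least 5 TPM, log2(TPM + 1) of MYC had its highest Pearson r with IMPA2 (0.963), GALNT18 (0.953), UCHL5 (0.952), MID1IP1 (0.935) and DCUN1D5 (0.932). Among its lowest were those with ALDH4A1 (-0.956), PIAS3 (-0.954), COMMD3 (-0.950) and FBXO42 (-0.935). Among members, MXD3 had 0.629, MAX 0.443, MLX 0.430, MNT 0.103, MGA -0.0575, MXI1 -0.0581 and MXD4 -0.582. MXD3 ranked 953 from the highest and MXD4 2414 from the lowest of the 12173 genes, so many genes lay further out than either.

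Over the 18 libraries of the other lines, with each line's mean subtracted and 11058 such genes, the highest were TAF4B (0.991), TWNK (0.984), POLR1B (0.982), RIOX2 (0.981) and SLC17A9 (0.980), and the lowest SEC14L1 (-0.972), SIRT2 (-0.972), GPR137 (-0.963), NTPCR (-0.963) and PPP4C (-0.959). POLR1B, a subunit of RNA polymerase I, is also on the list of genes raised by MYC. MAX had 0.884 and MXI1 0.814 there, at ranks 247 and 643 from the highest of the 11058 genes. MXD4 had -0.557, at rank 3576 from the lowest, so many genes ran against MYC more strongly than MXD4 did. Libraries of a group share a treatment and are not independent points, so these values describe likeness across treatments and carry no test.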

How the data were processed

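Poly(A) RNA of 45 libraries in 15 groups of 3 was measured. The 2 TPM tables were deposited by the authors, 1 for 27 Jurkat libraries and 1 for 18 libraries of the other lines. The submitters' processing notes name HISAT2 2.2.1, featureCounts 2.0.3, DESeq2 1.38.2 and the build hg38. Per the labels, the Jurkat kit did not keep strand and the kit of the other lines did. TPM is scaled to a fixed total, so a change in a few abundant genes moves the rest, and it keeps no depth. Whole reads were recovered from the deposited TPM and gene lengths, with 100% of values whole within 0.01 of a read.

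A gene needed 1 TPM or more in 3 or more libraries of its table and was then tested on log2(TPM + 1) with limma 3.58.1 in R 4.3.3 (trend and robust eBayes, Benjamini-Hochberg over all genes of a table, threshold 0.05). All groups of a table entered 1 fit, with 18 residual degrees of freedom for Jurkat and 12 for the other lines. The tables were never fitted together. Python 3.11.15 was used for the rest. The labels call the libraries biological replicates without naming separate cultures, so p-values measure the spread between these libraries. Replicate counts differed beyond sampling noise (chi-square over degrees of freedom 2.59 to 48.0), so none was taken for a repeat deposit. Same-numbered CCRF-CEM libraries deviated together (correlations 0.119 to 0.447, all above 0.1) and counted as paired, and no other comparison met that rule. The reported values, those of CCRF-CEM included, come from the fit of group means, which does not use this pairing. A replicate block was fitted only as an alternative.

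The members and all gene lists were chosen with earlier results of these data known. Genes named from a list were up to 3 per comparison with the largest log2 fold change among those called, and likeness to MYC names the 5 highest and 5 lowest correlations, of which 1 is not reported here. Alternatives changed the pseudocount (0.1), the filter (none, or 5 TPM), the scaling (median-ratio, or without mitochondrial genes), the variance model, the samples fitted and the replicate block, used limma-voom on recovered reads, and left out each library in turn. Sequences and gene positions come from RefSeq on GRCh38.p14. The fit was tested on simulated data.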

Additional observations from a re-analysis of the deposited data

Results flagged for a closer look

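The effect of BRM014 on members differed between times or lines by a test of the difference of the log2 fold changes, in limma with Benjamini-Hochberg adjustment over all genes, and those members are listed here, with MYCN last. Between 8 d and 6 h in Jurkat cells, 8 d minus 6 h, the differences were MAX 0.45 ± 0.06 (adjusted p = 1.94e-06), MXD4 1.45 ± 0.14 (adjusted p = 3.01e-08) and MLX 0.24 ± 0.06 (adjusted p = 0.0029). The MAX and MLX falls were smaller at 8 d than at 6 h, and MXD4 rose more at 8 d.

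Between CCRF-CEM and KOPT-K1 cells, CCRF-CEM minus KOPT-K1, the differences were MYC -2.84 ± 0.21 (adjusted p = 3.92e-07), MAX -0.31 ± 0.07 (adjusted p = 0.00606), MXI1 -0.88 ± 0.19 (adjusted p = 0.00449), MGA -0.32 ± 0.10 (adjusted p = 0.0395) and MLX 0.37 ± 0.08 (adjusted p = 0.003). Between TALL-1 and CCRF-CEM cells, TALL-1 minus CCRF-CEM, they were MYC 1.27 ± 0.21 (adjusted p = 0.000533), MXD1 0.95 ± 0.20 (adjusted p = 0.00356), MXD4 1.04 ± 0.20 (adjusted p = 0.00158) and MNT -0.44 ± 0.13 (adjusted p = 0.0276). Between TALL-1 and KOPT-K1 cells, TALL-1 minus KOPT-K1, they were MYC -1.57 ± 0.21 (adjusted p = 9.08e-05), MAX -0.41 ± 0.07 (adjusted p = 0.000603), MXI1 -0.74 ± 0.19 (adjusted p = 0.0118), MXD1 1.05 ± 0.20 (adjusted p = 0.00156), MXD4 1.35 ± 0.20 (adjusted p = 0.000187) and MNT -0.81 ± 0.13 (adjusted p = 0.000401). The MGA difference lost its call in 9 of the 12 fits that left out a library, all but those without CCRF-CEM DMSO replicate 3, CCRF-CEM BRM014 replicate 2 or KOPT-K1 BRM014 replicate 2 (adjusted p up to 0.101). The MNT difference between TALL-1 and CCRF-CEM cells lost its call in 8 of 12, all but those without replicate 2 of CCRF-CEM DMSO, CCRF-CEM BRM014 or TALL-1 DMSO or without TALL-1 BRM014 replicate 3 (adjusted p up to 0.0701). The effect on MYCN differed by -1.26 (adjusted p = 4.12e-05), CCRF-CEM minus KOPT-K1, and by 1.26 (adjusted p = 2.77e-05), TALL-1 minus CCRF-CEM, where KOPT-K1 and TALL-1 libraries held no MYCN read, and both calls were lost with limma-voom on recovered reads (adjusted p = 0.275 and 0.209). With the replicate number as a block, differences with CCRF-CEM, whose libraries it paired, were also called for MXD3, CCRF-CEM minus KOPT-K1 (0.19, adjusted p = 0.0272), and MLX, TALL-1 minus CCRF-CEM (-0.17, adjusted p = 0.0165). The lines are 1 line each, and what sets their difference was not tested. Groups held 3 libraries, so single libraries were not screened for outlying values.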

How the results depend on the processing

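For MYC, 333 of 339 values under an alternative kept their direction and their side of the threshold, 6 lost the call and none reversed. The 6 came from leaving out 1 library. Without 1 library, the log2 fold change of MYC ran from 0.16 to 0.27 with gARID1A_1B and from -0.32 to -0.18 with gSMARCA4. Of 2787 values of the other members, 2630 kept their side, 96 lost a call, 61 gained one and none reversed. The number of members called was within 1.5 times the reported one in 129 of 135 alternatives. It was 6 at 8 d of BRM014 under median-ratio rescaling, and without 1 library it ran from 1 to 4 with gARID1A_1B, from 4 to 6 with gSMARCA4 and from 3 to 5 in KOPT-K1 cells. The cause was not tested. Median-ratio rescaling moved the median of all genes by -0.11 on the log2 scale between gSMARCA4_A2 and gARID1A_1B cells.

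With the replicate number as a block, the members called were 4 at 6 h, 4 at 8 d, 3 with gARID1A, 4 with gARID1A_1B, 6 with gSMARCA4, 5 with gSMARCA4_A2, 7 in CCRF-CEM, 5 in KOPT-K1 and 7 in TALL-1 cells. These counts stand without the share of all genes called in that fit, so they do not show whether members stood apart. In CCRF-CEM, where the numbers paired the libraries, MXD3 was the call gained, and the block ended no call of a member against DMSO. The other comparisons did not meet the rule for pairing, and same-numbered libraries there correlated at -0.084 to 0.30. At 6 h in Jurkat cells, with gARID1A_1B and in KOPT-K1 and TALL-1 cells, each treated library still correlated best with its same-numbered control. Pairing in these comparisons is therefore not excluded. Outside CCRF-CEM the block ended the call of MNT with gSMARCA4 and gained MLX at 8 d and MXD3 in TALL-1 cells. Depth limits MYCN, which had 0 reads in KOPT-K1 and TALL-1 libraries and 3 to 36 in Jurkat libraries. Floors cover counting error only, and the 95% intervals of differences cover the spread between libraries.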
